A study of Homo sapiens with 27 samples.

Results

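The genes described here were 10 members of the cadherin and catenin families, taken by symbol from the 57165 genes quantified in the series. They comprised 7 cadherins (CDH1, CDH2, CDH3, CDH4, CDH6, CDH11 and CDH13) and 3 catenins (CTNNB1, CTNND1 and CTNNA1). The question was whether repression of ZEB1 was accompanied by a switch from one cadherin to another, and which cadherin carried it. P-cadherin (CDH3) rose between 17.7- and 26.3-fold in every ZEB1-targeted group of both lines. N-cadherin (CDH2) fell to 0.668 and 0.697 of its control level in SUM159 and stayed among the main cadherins there. E-cadherin (CDH1) reached 18.9, 24.2 and 10.2 CPM (counts scaled to library size) in 1 MDA-MB-231 group and stayed at or under 5.10 CPM in every library of the other targeted groups.

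The transcriptomes of 2 established triple negative breast cancer lines with mesenchymal features, SUM159 and MDA-MB-231, were sequenced in 27 libraries that formed 9 groups of 3. Untransduced wild type cells, cells carrying a lentiviral vector for dCas9-KRAB without a guide RNA (No gRNA), and cells carrying the vector with guides against the ZEB1 promoter were compared. dCas9-KRAB is a cutting-deficient Cas9 fused to a repressor domain, so that the guides bring repression to a chosen promoter, and all vector groups had been selected with puromycin. Replicates were called individual clones in the study's methods, and p-values measure only the spread between them.

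In SUM159 the targeted groups were gRNA 4, with a single guide, and All gRNA, with a pool of 4 guides. Run 1 held the transduced SUM159 cells with 3 of their wild type libraries, and run 2 held 3 more such wild type libraries with all of MDA-MB-231. Only the titles of those 3 further SUM159 libraries name a run. For all other libraries the run was read from the prefix of the data columns. The labels do not say what a run was. For 6 MDA-MB-231 libraries the sample titles and the data columns disagreed on which held gRNA 4 and which held the pool, so these are given as set 1 and set 2 without a guide assignment. Any difference between the lines in their response also lies between runs, and the 2 cannot be told apart.

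Classical cadherins are calcium-dependent receptors that bind like cadherins on the neighbouring cell. Their cytoplasmic tails hold beta-catenin (CTNNB1) and p120-catenin (CTNND1), and alpha-catenin (CTNNA1) couples beta-catenin to actin. E-cadherin is the epithelial member and N-cadherin the best known mesenchymal one, and the exchange of the first for the second is a textbook mark of epithelial-mesenchymal transition. ZEB1 is a transcriptional repressor that binds E-box sequences, with CDH1 its classical target. P-cadherin is found in the basal and myoepithelial layer of the breast. R-cadherin (CDH4) belongs with the type I members, cadherin-6 and cadherin-11 are type II members, and T-cadherin (CDH13) is held by a lipid anchor and has no tail to bind catenins.

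The gene sequences before a transcription start are shown because E-boxes are the sites that ZEB1 binds. RefSeq promoter windows on GRCh38.p14 were held for 4 of the 10 members, in 9 windows, and the letters CAGGTG were searched on both strands (CACCTG on the other) in the 250 bases before each start. The motif stood in 1 of the 9 windows and in 17.5% of 35116 windows of all genes. The last 80 bases before the start are printed 5′ to 3′ along the gene, with the motif in capitals. They are given for N-cadherin, whose 250 bases held none, and for R-cadherin at an internal start, where the motif lay at -16. No window was held for the canonical start of R-cadherin at 61252261, so the bases before it were not searched. They are also given for plakoglobin (JUP), a close relative of beta-catenin, at an internal start, where the motif lay at -54 and -43. JUP is not among the 10 members, was picked after its values were seen, and is outside the 9 windows counted. Binding of ZEB1 at any of these sites was not tested. The 250 bases before the upstream start of JUP held none.
CDH2, minus strand, chr18:28177131-28177210: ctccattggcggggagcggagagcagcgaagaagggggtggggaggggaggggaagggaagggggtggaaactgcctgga
CDH4, plus strand, chr20:61499341-61499420: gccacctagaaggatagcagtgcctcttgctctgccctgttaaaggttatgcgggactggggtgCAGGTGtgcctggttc
JUP, minus strand, chr17:41785977-41786056: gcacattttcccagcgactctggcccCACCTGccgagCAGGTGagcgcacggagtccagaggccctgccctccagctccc
CDH1, CDH3, CDH6, CDH11, CDH13 and CTNND1 are named only.

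Libraries held between 15461200 and 21473757 estimated counts. ZEB1 itself averaged 73.7 CPM in the No gRNA cells of SUM159, 3.46 CPM in gRNA 4 cells and 0.737 CPM in All gRNA cells. For MDA-MB-231 its mean was 110.1 CPM without guides, 5.33 CPM for set 1 and 4.69 CPM for set 2. Wild type cells averaged 79.6 CPM of ZEB1 in SUM159 of run 1 and 70.0 CPM in MDA-MB-231. In MDA-MB-231, ZEB1 was thus 0.60 higher in No gRNA than in wild type on the log2 scale. The receptors ESR1 and PGR and the leukocyte gene PTPRC averaged at most 0.320 CPM in any group, while the receptor ERBB2 averaged 42.1 to 63.1 CPM. The luminal keratins KRT8 and KRT18 and the mesenchymal filament gene VIM were present throughout and moved with some targeted groups. In MDA-MB-231 No gRNA, set 1 and set 2, KRT8 averaged 264, 242 and 1012 CPM, KRT18 averaged 376, 630.4 and 1102 CPM, and VIM averaged 2384, 1319 and 2508 CPM. MDA-MB-231 wild type averaged 615 CPM of KRT8, 584 CPM of KRT18 and 2490 CPM of VIM. TREAT called KRT8 and KRT18 higher in set 2 than in No gRNA (limma adjusted p-values of 1.53e-08 and 6.86e-08), and their part in the results was not tested. The endothelial gene PECAM1 ranged from 0.800 to 6.56 CPM on average, and its part in the results was not tested.

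The 2 lines started from different cadherins. In wild type SUM159 of run 2, N-cadherin (CDH2) stood at 133, 139 and 131 CPM and T-cadherin (CDH13) at 330, 317 and 297 CPM. In wild type MDA-MB-231 of the same run, N-cadherin stood at 0.0459, 0.487 and 0.295 CPM, at most 8.43 estimated counts in a library. MDA-MB-231 carried R-cadherin (CDH4) at 71.3, 65.6 and 70.5 CPM and cadherin-11 (CDH11) at 68.4, 71.9 and 66.3 CPM. The line that lacked N-cadherin thus held 2 cadherins that SUM159 had at no more than 7.54 counts in any library of run 2.

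Differences were called with limma's TREAT, which asks whether a log2 fold change exceeds 1 in either direction, at a Benjamini-Hochberg adjusted p under 0.05 over all genes tested. A moderated test against 0 from the same fit is given beside it. Between the wild type lines TREAT called 5 of the 8 members tested, where it called 29.1% of all genes. CDH2, CDH6 and CDH13 were higher in SUM159 and CDH4 and CDH11 were higher in MDA-MB-231, with limma TREAT adjusted p-values between 2.38e-06 and 3.74e-05. The 3 catenins were lower in SUM159 by 0.33 to 0.38 on the log2 scale, and all 8 members tested passed the moderated test, as did 75.5% of all genes.

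**Figure D1:**
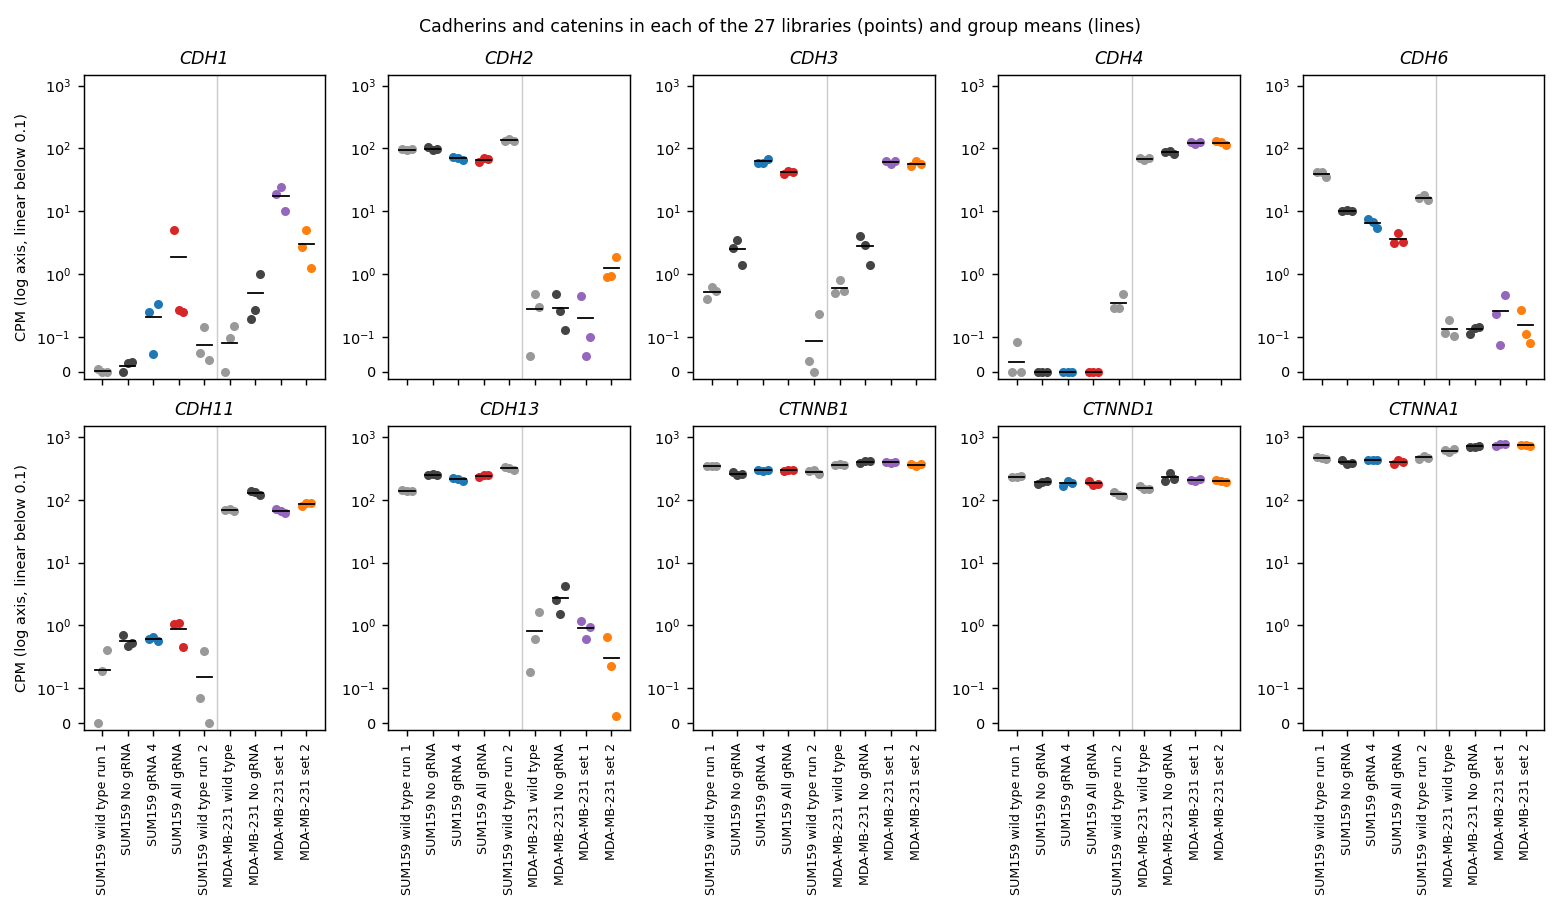
CPM of the 10 genes (vertical axis, log scale, linear below 0.1) in each of the 27 libraries, with the 9 groups along the horizontal axis, points for libraries and lines for group means. CDH3 moves from at most 4.03 CPM in every control library to at least 38.6 CPM in every targeted library of both lines, while CDH2 lies between 61.2 and 139 CPM in SUM159 and at or under 1.88 CPM in MDA-MB-231.

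P-cadherin (CDH3, ENSG00000062038, chromosome 16, 68636189 to 68727468, plus strand, GRCh38) had the largest log2 fold change of the members tested in SUM159. SUM159 No gRNA libraries had 2.59, 3.54 and 1.37 CPM of CDH3. Those with gRNA 4 had 58.2, 59.4 and 69.0 CPM, and those with All gRNA had 38.6, 44.3 and 41.4 CPM. Every targeted library was far above every control library, and the gRNA 4 libraries all lay above the All gRNA libraries.

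The log2 fold change of CDH3 against No gRNA was 4.15 with All gRNA (SE 0.246, limma TREAT adjusted p = 6.92e-05) and 4.72 with gRNA 4 (SE 0.243, limma TREAT adjusted p = 6.54e-06). CDH3 was the 1 member of 8 tested that TREAT called in each of these comparisons, against 0.396% of all genes called with All gRNA and 0.390% with gRNA 4. In RNA from whole cultures, more cells expressing a gene and more RNA per cell cannot be told apart. All gRNA was 0.57 lower than gRNA 4 on the log2 scale, at a limma moderated adjusted p of 0.0432, a test that 0.944% of genes passed. The quasi-likelihood test of edgeR against 0 did not pass CDH3 in this comparison.

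In MDA-MB-231 the same gene rose in both sets. No gRNA libraries had 4.03, 2.89 and 1.40 CPM of CDH3, set 1 had 63.3, 57.5 and 63.1 CPM, and set 2 had 52.2, 62.1 and 55.7 CPM. The targeted sets overlapped each other and lay far above No gRNA. The log2 fold changes were 4.58 in set 1 (SE 0.258, limma TREAT adjusted p = 4.78e-06) and 4.49 in set 2 (SE 0.258, limma TREAT adjusted p = 2.90e-06).

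The CDH3 response in MDA-MB-231 minus that in SUM159 was 0.08 on the log2 scale (SE 0.367), with a 95% confidence interval from -0.69 to 0.84 and a limma moderated adjusted p of 0.909. Set 2 minus set 1 was -0.09, with an interval from -0.34 to 0.15 and a limma moderated adjusted p of 0.506. Neither difference exceeded the spread between libraries, and the first interval still allows a gap of nearly 1 doubling.

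CDH3 was also above wild type in No gRNA cells. It stood at 0.397, 0.631 and 0.543 CPM in SUM159 wild type of run 1 and at 0.501, 0.799 and 0.529 CPM in MDA-MB-231 wild type. No gRNA minus wild type was 2.11 in SUM159 and 1.98 in MDA-MB-231 on the log2 scale, with limma TREAT adjusted p-values of 0.477 and 0.555 and limma moderated adjusted p-values of 0.00255 and 0.00613. Measured from wild type, the log2 fold change of CDH3 in targeted cells was therefore larger, between 6.26 and 6.83, from wild type libraries of 8.27 to 13.8 counts.

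E-cadherin (CDH1, ENSG00000039068, chromosome 16, 68737292 to 68835537, plus strand) lies downstream of CDH3 on the same strand, with 9823 bp between the genes and 91982 bp between their starts. In MDA-MB-231 No gRNA it had 3.42, 4.96 and 18.4 estimated counts. Set 1 had 309, 407 and 160 counts, which is 18.9, 24.2 and 10.2 CPM. Set 2 had 46.3, 87.9 and 19.8 counts, and its lowest library was close to the highest No gRNA library.

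Set 1 exceeded No gRNA by a log2 fold change of 5.36 (SE 0.917, limma TREAT adjusted p = 0.0232), which was called. Leaving out any of the 3 No gRNA libraries gave 4.92 to 6.04 with limma TREAT adjusted p-values of 0.136 to 0.161. Leaving out set 1 replicate 1 gave 5.28 with a limma TREAT adjusted p of 0.0533. The call, but not the direction, thus depended on single libraries.

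In set 2 the log2 fold change of CDH1 was 2.72 (SE 0.994), not called by TREAT (limma adjusted p = 0.686) and past the limma moderated test at an adjusted p of 0.0384. Set 2 minus set 1 was -2.65 (SE 0.492), with a limma TREAT adjusted p of 0.0882 and a limma moderated adjusted p of 8.30e-04. Every set 2 library had less CDH1 than every set 1 library, while the mean ZEB1 levels of the 2 sets were 4.69 and 5.33 CPM.

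In SUM159, CDH1 did not pass the filter on low counts. Without that filter All gRNA gave 4.04 and gRNA 4 gave 2.15 as log2 fold changes of CDH1, and neither was called (limma TREAT adjusted p = 1 in both). Wild type and No gRNA libraries of run 1 had at most 0.527 counts, under the 3 counts that a reading of 0 still allows. With gRNA 4 there were 4.31, 0.885 and 5.61 counts, and with All gRNA 90.5, 4.84 and 4.58 counts. The All gRNA mean of 1.87 CPM came almost wholly from replicate 1 at 5.10 CPM, with the others at 0.272 and 0.247 CPM.

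Counted over all members tested, TREAT called 2 of 9 in set 1 and 1 of 9 in set 2, against 1.47% and 4.14% of all genes. The members past the limma moderated test were 4 of 8 with All gRNA, 5 of 8 with gRNA 4, 5 of 9 in set 1 and 7 of 9 in set 2. That test passed 10.8%, 11.0%, 37.8% and 52.4% of all genes in the same order. The median log2 fold change of the members tested lay between -0.03 and 0.08 in the 4 comparisons, and that of all genes between -0.01 and 0.00, so that most members moved little or in opposite directions.

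**Figure D2:**
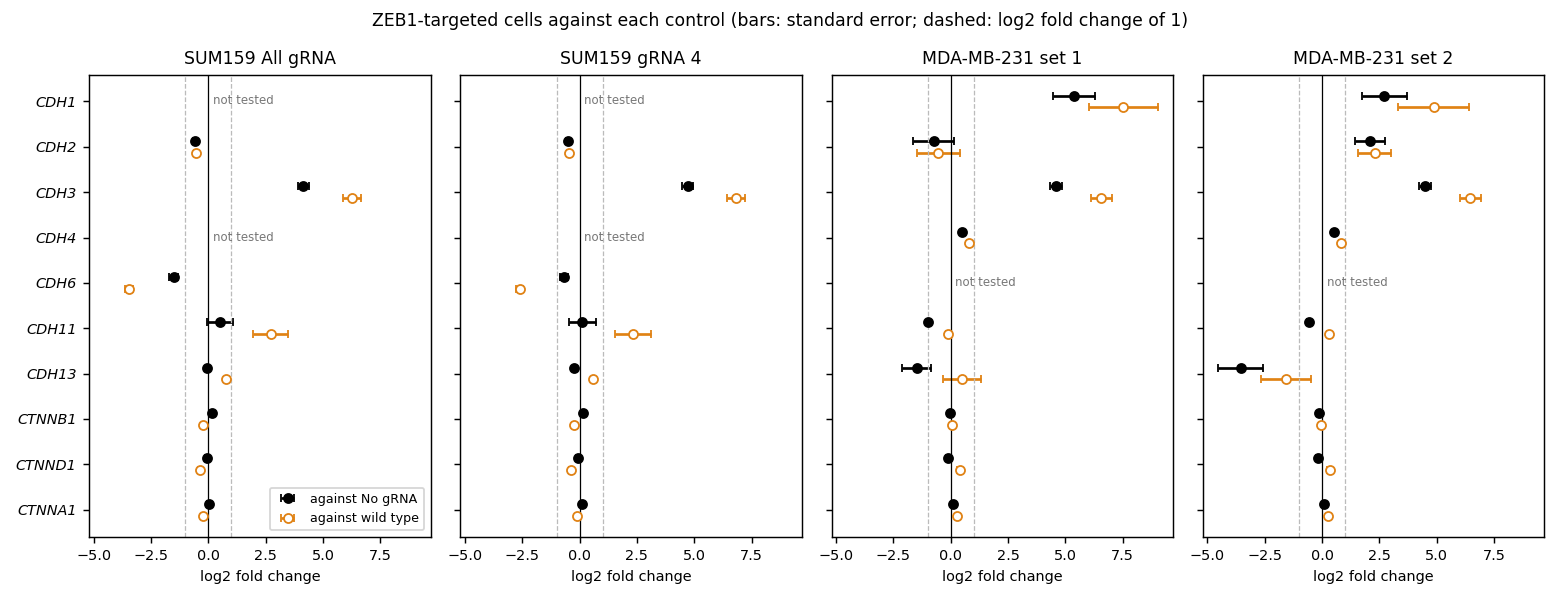
Log2 fold change (horizontal axis) of each member in the 4 targeted groups against No gRNA (filled black points) and against wild type (open orange points), with standard errors as bars and dashed lines at -1 and 1. CDH3 lies at 4.15 to 4.72 against No gRNA, and CDH1 at 5.36 in set 1 and 2.72 in set 2. With the control used, CDH11 changes side in set 2 and CDH13 in All gRNA, gRNA 4 and set 1. CTNNB1, CTNNA1 and CTNND1 change side in some groups.

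N-cadherin (CDH2, ENSG00000170558, chromosome 18, 27932879 to 28177946, minus strand) was lower in every targeted SUM159 library than in any No gRNA library. No gRNA had 105, 94.2 and 98.8 CPM, gRNA 4 had 72.8, 70.5 and 65.9 CPM and All gRNA had 61.2, 69.6 and 68.8 CPM. The decrease was small, and the groups did not overlap.

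CDH2 fell by 0.58 on the log2 scale with All gRNA (SE 0.0690) and by 0.52 with gRNA 4 (SE 0.0690), at limma moderated adjusted p-values of 2.06e-04 and 4.36e-04. TREAT did not call it, since the changes were under 1 (limma adjusted p of 1 in both). Against wild type the decreases were 0.54 and 0.48, and No gRNA differed from wild type by 0.04, so this gene was near its wild type level in No gRNA cells.

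MDA-MB-231 had little CDH2 to lose. No library of the line exceeded 29.6 counts, and the highest were in set 2, with 15.4, 16.3 and 29.6 counts against 8.62, 4.62 and 2.32 in No gRNA. The log2 fold change in set 2 was 2.09 (SE 0.669, limma TREAT adjusted p = 0.755, limma moderated adjusted p = 0.0211), which is upward and the opposite of the SUM159 direction. In set 1 it was -0.75 with a limma moderated adjusted p of 0.553. The difference between the lines in the CDH2 response was 1.20 (limma moderated adjusted p = 0.148) and did not pass.

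Cadherin-6 (CDH6, ENSG00000113361, chromosome 5, 31193686 to 31329146, plus strand), a type II cadherin best known from kidney development, was lower at each step from wild type to targeted SUM159 cells. It had 41.9, 41.5 and 35.2 CPM in wild type of run 1, 9.98, 10.5 and 10.3 CPM in No gRNA, 7.60, 6.77 and 5.33 CPM with gRNA 4, and 3.15, 4.58 and 3.19 CPM with All gRNA. None of these groups overlapped.

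The first of those steps was the called one. No gRNA minus wild type was -1.95 for CDH6 (SE 0.130, limma TREAT adjusted p = 0.00122). Against No gRNA, CDH6 fell by 1.51 with All gRNA (SE 0.193, limma TREAT adjusted p = 1, limma moderated adjusted p = 3.82e-04) and by 0.66 with gRNA 4 (limma moderated adjusted p = 0.0277). CDH6 was also lower in run 2 than in run 1 of SUM159 wild type, by 1.26 (limma TREAT adjusted p = 0.268, limma moderated adjusted p = 8.80e-05). It stood at no more than 7.36 counts in any MDA-MB-231 library and did not pass the filter on low counts there.

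T-cadherin (CDH13, ENSG00000140945, chromosome 16, 82626965 to 83800640, plus strand) held the largest share of the cadherin sum per length, given further on, in the transduced SUM159 groups. No gRNA had 248, 254 and 250 CPM, All gRNA had 234, 248 and 245 CPM, and gRNA 4 had 219, 216 and 200 CPM. All gRNA overlapped No gRNA, with a log2 fold change of -0.05 and an interval from -0.15 to 0.05. With gRNA 4 it fell by 0.25 (limma moderated adjusted p = 0.00405).

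In MDA-MB-231 CDH13 was sparse, with 44.2, 27.3 and 77.1 counts in the libraries without guides. Set 1 had 19.5, 10.1 and 14.8 counts and set 2 had 11.3, 3.92 and 0.316 counts. The log2 fold changes were -1.49 in set 1 (SE 0.645, limma moderated adjusted p = 0.0923) and -3.55 in set 2 (SE 0.969, limma TREAT adjusted p = 0.197, limma moderated adjusted p = 0.00923). Wild type MDA-MB-231 had 2.95, 10.7 and 29.5 counts, below No gRNA on average, and against wild type the values were 0.49 in set 1 and -1.57 in set 2, with limma moderated adjusted p-values of 0.632 and 0.295.

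R-cadherin (CDH4, ENSG00000179242, chromosome 20, 61252261 to 61940617, plus strand) was raised modestly in MDA-MB-231. No gRNA had 89.1, 90.9 and 80.1 CPM, set 1 had 126, 116 and 125 CPM and set 2 had 133, 125 and 114 CPM, with no overlap between control and targeted libraries. The log2 fold changes were 0.50 and 0.54, with limma moderated adjusted p-values of 1.70e-04 and 4.69e-05 and limma TREAT adjusted p-values of 1. In the SUM159 groups of run 1 it had 0 counts in 11 of 12 libraries and 1.79 in the other, and in SUM159 wild type of run 2 it had 4.55, 4.56 and 7.54 counts.

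Cadherin-11 (CDH11, ENSG00000140937, chromosome 16, 64943753 to 65126112, minus strand), a type II cadherin of mesenchymal and bone-forming cells, was lower in both MDA-MB-231 sets than in No gRNA. No gRNA had 138, 132 and 119 CPM, set 1 had 70.3, 65.3 and 61.2 CPM and set 2 had 78.3, 89.0 and 90.0 CPM. Both sets were below every No gRNA library.

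CDH11 fell by 0.98 in set 1 (SE 0.0776, limma moderated adjusted p = 2.29e-06) and by 0.58 in set 2 (SE 0.0727, limma moderated adjusted p = 4.55e-05) on the log2 scale, with limma TREAT adjusted p-values of 1. Wild type cells, however, had only 68.4, 71.9 and 66.3 CPM, and No gRNA exceeded wild type by 0.86 (limma moderated adjusted p = 2.12e-06). Measured from wild type, set 1 was -0.12 (limma moderated adjusted p = 0.254) and set 2 was 0.28 higher (limma moderated adjusted p = 0.0181). The targeted cells were thus below one control and not below the other by a passing test. In SUM159, CDH11 had at most 19.3 counts in a library, and its log2 fold changes of 0.51 with All gRNA and 0.12 with gRNA 4 passed neither test (limma moderated adjusted p-values of 0.634 and 0.932).

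Levels of different cadherins were set side by side only per length, as CPM per kb of the canonical transcript, and each cadherin was given as a share of the sum over the 7. T-cadherin made up 54.5% ± 1.51 (SD, n = 3) of that sum in the No gRNA cells of SUM159, beside 42.4% ± 1.74 for N-cadherin and 0.962% ± 0.423 for P-cadherin. With gRNA 4 the shares were 45.4% (43.7 to 46.3% over the libraries), 29.4% ± 1.01 and 23.7% ± 2.66. With All gRNA they were 53.4% ± 0.503, 28.7% ± 1.03 and 16.2% ± 0.525. E-cadherin held 0.0741% ± 0.0510 with gRNA 4. With All gRNA it held 1.92% in replicate 1 and 0.0951% and 0.0885% in the others. Cadherins outside the 7 are left out of these shares. One of them, CDH12, averaged 8.73, 8.73 and 8.45 CPM per kb in SUM159 No gRNA, gRNA 4 and All gRNA. CDH3 averaged 0.562, 14.0 and 9.31 CPM per kb in the same groups.

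In MDA-MB-231 No gRNA, cadherin-11 held 57.7% ± 0.434 (SD, n = 3), R-cadherin 38.8% ± 0.960 and P-cadherin 1.83% ± 0.777. In set 1, R-cadherin held 40.1% ± 1.87, P-cadherin 30.1% ± 1.74, cadherin-11 21.3% ± 0.683 and E-cadherin 8.06% ± 3.16. In set 2, R-cadherin held 41.3% ± 3.24, cadherin-11 28.3% ± 2.14, P-cadherin 28.2% ± 1.48 and E-cadherin 1.36% ± 0.813. The order of the shares depended on the length used. With the length of all exons together, P-cadherin held 25.9% and N-cadherin 21.6% with gRNA 4, P-cadherin held 27.3% and cadherin-11 19.9% in set 2, and R-cadherin held 52.1% and cadherin-11 44.2% in MDA-MB-231 No gRNA. Under both lengths P-cadherin went from at most 1.93% in No gRNA to at least 16.2% in the targeted groups. These shares are descriptions without a test.

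Against No gRNA, the summed level per length changed in 1 line. For SUM159 it was 58.4 ± 0.985 CPM per kb (SD, n = 3) without guides, 59.1 ± 0.973 for gRNA 4 and 57.6 ± 2.16 for All gRNA, with overlapping ranges. For MDA-MB-231 it was 33.5 ± 2.30 without guides, 45.7 ± 1.82 for set 1 and 45.0 ± 1.94 for set 2, and the guide-free libraries lay below the rest. In SUM159 wild type of run 1 it was 46.4 ± 0.934 and in MDA-MB-231 wild type 20.9 ± 0.0654. The No gRNA groups thus stood above wild type of the same run in both lines. SUM159 wild type of run 2, at 75.5 ± 2.81, stood above all SUM159 groups of run 1.

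**Figure D3:**
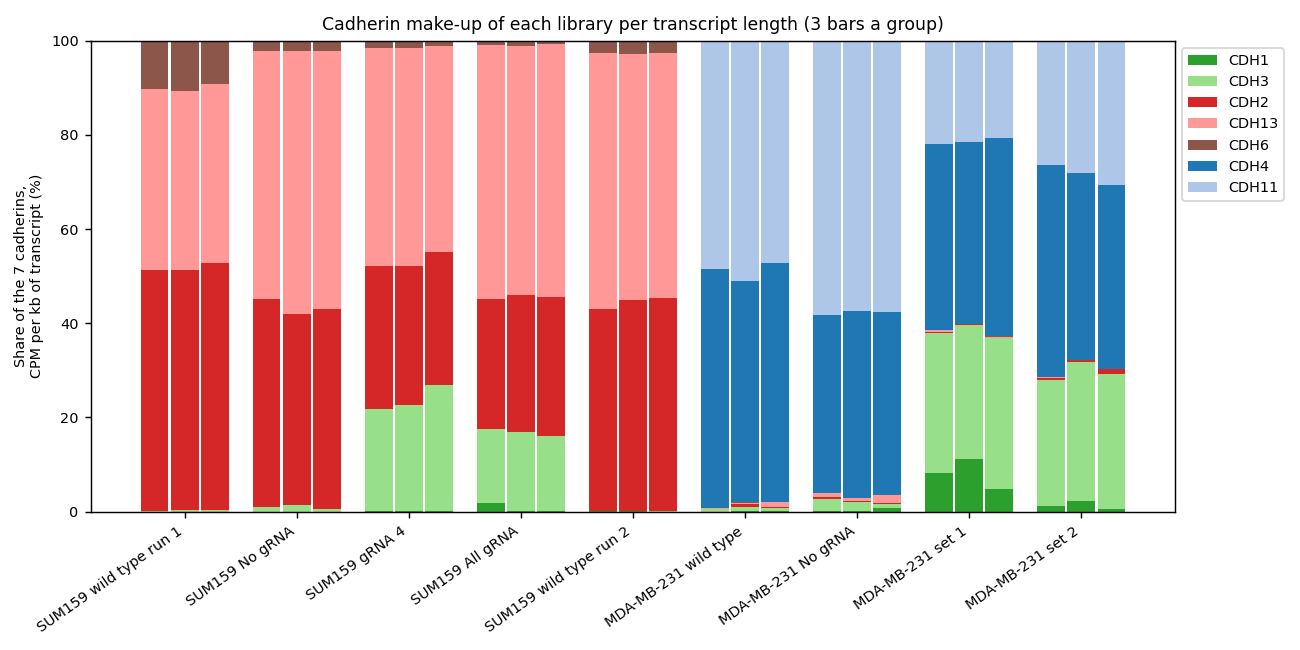
Share of each of the 7 cadherins (colours) in their summed CPM per kb of transcript (vertical axis, %), with 1 bar for each of the 27 libraries and 3 bars a group. CDH3 fills 15.7 to 26.7% of targeted SUM159 libraries and 26.6 to 32.0% of targeted MDA-MB-231 libraries, and CDH1 is visible mainly in set 1. CDH2 and CDH13 hold the largest shares in SUM159 by this length. In gRNA 4, CDH3 comes close to CDH2 (26.7 against 28.3% in replicate 3), and is above it with the length of all exons together.

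The catenins were abundant and nearly level. Beta-catenin (CTNNB1, chromosome 3, 41194741 to 41260096, plus strand) stood at 277, 252 and 254 CPM in the SUM159 cells without guides. It stood at 302, 287 and 296 CPM for gRNA 4 and at 290, 296 and 293 CPM for All gRNA. The increase of 0.17 on the log2 scale in both was past the limma moderated test (adjusted p-values of 0.0356 and 0.0367). Against SUM159 wild type, at 347, 343 and 340 CPM, both targeted groups were lower, by 0.23 and 0.24, since No gRNA was 0.40 below wild type.

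In MDA-MB-231 the guide-free cells had 389, 411 and 416 CPM of CTNNB1, set 1 had 404, 384 and 400 CPM, and set 2 had 367, 349 and 370 CPM. Set 1 overlapped No gRNA, with a log2 fold change of -0.03 and an interval from -0.11 to 0.05, and set 2 fell by 0.14 (limma moderated adjusted p = 0.00700). Set 2 was also 0.11 below set 1 (limma moderated adjusted p = 0.0279).

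p120-catenin (CTNND1, chromosome 11, 57753243 to 57819546, plus strand), which keeps cadherins at the membrane, did not pass either test in any of the 4 comparisons with No gRNA. Its log2 fold changes ran from -0.17 to -0.06, and the intervals reached from -0.38 to 0.09. Alpha-catenin (CTNNA1, chromosome 5, 138610967 to 138935034, plus strand) ran from 0.02 to 0.12 and passed the moderated test in set 1, at 0.09 (limma adjusted p = 0.0432). The larger changes of both lay between No gRNA and wild type.

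Many members differed between No gRNA and wild type. Transduction, dCas9-KRAB and puromycin selection all lie between these groups and cannot be told apart. In SUM159, No gRNA minus wild type passed the limma moderated test in 7 of 8 members (42.9% of all genes passed) and was called by TREAT in 1, CDH6, against 1.53% of genes. CDH3, CDH11 and CDH13 were higher and CDH6, CTNNB1, CTNND1 and CTNNA1 were lower, with CDH13 0.84 higher and CDH11 at no more than 12.5 counts. In MDA-MB-231, 7 of 9 members passed the moderated test, all higher in No gRNA, while 53.8% of all genes passed. TREAT called 0 of these 9, with 1 at an unadjusted p under 0.05, and edgeR's glmTreat and DESeq2 each called 1, CDH3, where TREAT called 3.60% of all genes. CTNND1 was 0.50 higher in the vector cells of MDA-MB-231 and 0.31 lower in those of SUM159.

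**Figure D4:**
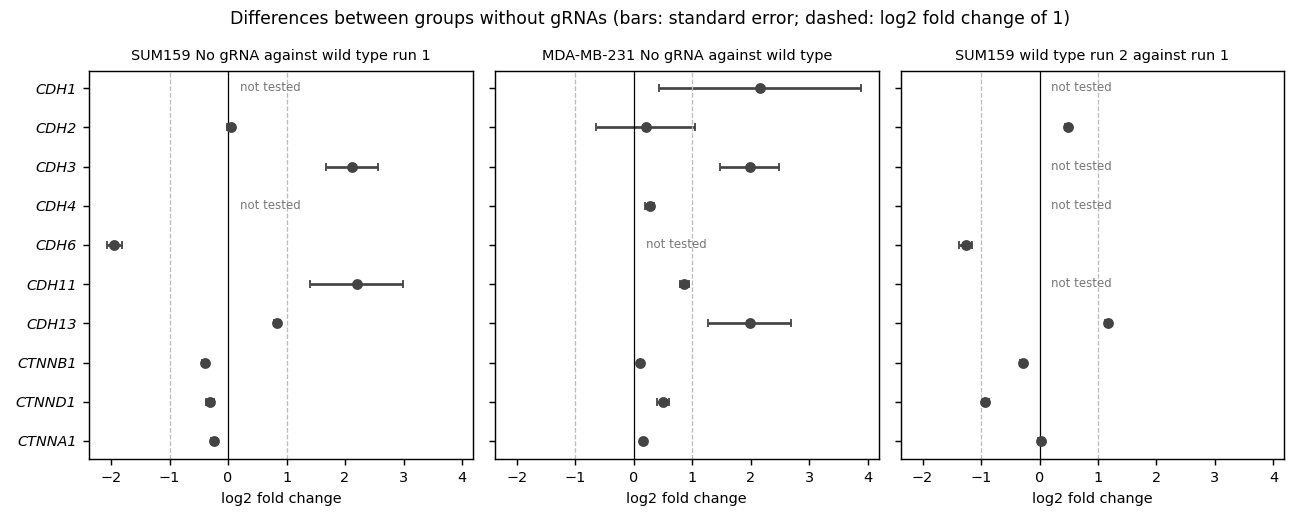
Log2 fold change (horizontal axis) with standard error of each member between groups that carry no guide: No gRNA against wild type in both lines, and SUM159 wild type of run 2 against run 1. CDH3 is higher in No gRNA by 2.11 and 1.98, CDH6 lower by 1.95 in SUM159, and CDH13 higher by 1.18 in run 2.

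The 2 runs of SUM159 wild type give a scale for these values. Run 2 minus run 1 was 1.18 for CDH13, 0.49 for CDH2, -1.26 for CDH6, -0.93 for CTNND1 and -0.29 for CTNNB1, and these 5 of the 6 members tested passed the limma moderated test, as did 62.1% of all genes. TREAT called 0 of the 6, with 2 at an unadjusted p under 0.05, and edgeR's glmTreat and DESeq2 each called CDH13, where TREAT called 6.65% of genes. The CDH2 gap between runs of the same untransduced line was of the size of its decrease in targeted cells, which were compared within run 1. What else differed between the runs is not stated.

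Between the guide designs, TREAT called 0 of 8 members for All gRNA against gRNA 4, with 0 at an unadjusted p under 0.05, and called 0.00% of all genes. The limma moderated test passed 1, CDH3, where it passed 0.944% of all genes. edgeR's quasi-likelihood test passed 1, CDH6, but not CDH3, and edgeR's glmTreat and DESeq2 passed 0. For set 2 against set 1, TREAT called 0 of 9 members, with 2 at an unadjusted p under 0.05, where it called 3.07% of all genes, and 4 members passed the limma moderated test against 51.5% of genes. These 4 were CDH1 and CTNNB1, lower in set 2, and CDH2 and CDH11, higher in set 2.

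The targeted effect in MDA-MB-231 minus that in SUM159 was called by TREAT in 0 of the 10 members, with 1 at an unadjusted p under 0.05, and in 0.954% of all genes, and edgeR's glmTreat and DESeq2 also called 0. CDH13 and CTNNB1 passed the limma moderated test of that difference, which 25.4% of all genes passed. CDH13 differed by -2.39 (SE 0.502, limma moderated adjusted p = 0.00129) and CTNNB1 by -0.28 (SE 0.0471, limma moderated adjusted p = 1.70e-04). Both differences were measured from No gRNA.

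Beyond the members, TREAT called 0 of 5 other classical cadherins tested in SUM159 and 0 of 2 in MDA-MB-231, of 12 on the list, with 0 at an unadjusted p under 0.05, and the moderated test passed 1 of them in 1 comparison, CDH12 in set 2 at -1.28 (limma adjusted p = 0.0225), which was named after its values were seen. None of 6 non-classical cadherins had enough counts to be tested. Of 8 other catenins and armadillo relatives, TREAT called 0 of 5 tested in SUM159 and 0 of 7 in MDA-MB-231, with 1 at an unadjusted p under 0.05, in set 1. The moderated test passed 1, 2, 5 and 5 of them with All gRNA, gRNA 4, set 1 and set 2, where it passed 10.8%, 11.0%, 37.8% and 52.4% of all genes, and all but 1 of these were higher.

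Plakoglobin (JUP), which can take the place of beta-catenin on a cadherin tail, was named after its values were seen. In SUM159 it averaged 98.9 CPM without guides, 152 CPM for gRNA 4 and 154 CPM for All gRNA. In MDA-MB-231 it averaged 60.1 CPM without guides, 127 CPM for set 1 and 98.6 CPM for set 2. The log2 fold changes of JUP were 0.64 with All gRNA, 0.60 with gRNA 4, 1.08 in set 1 and 0.74 in set 2, with limma moderated adjusted p-values between 1.94e-07 and 8.76e-04. In MDA-MB-231, JUP was also 1.68 higher in No gRNA than in wild type (limma TREAT adjusted p = 4.60e-04). It passed the moderated test upward in all 4 comparisons, where CTNNB1 passed upward in SUM159 and downward in set 2.

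Of 10 adherens junction partners, TREAT called LIMA1, an actin-binding partner of alpha-catenin, at 1.23 in set 1 (limma TREAT adjusted p = 0.0369). The same gene was -0.27 in set 2 and 0.29 and 0.39 with All gRNA and gRNA 4, and run 2 minus run 1 of SUM159 wild type was -1.57 for LIMA1 (limma TREAT adjusted p = 0.00533). The moderated test passed 4, 5, 5 and 7 partners with All gRNA, gRNA 4, set 1 and set 2, of 10 tested in SUM159 and 9 in MDA-MB-231, beside the same shares of all genes (10.8%, 11.0%, 37.8% and 52.4%). Of 6 genes for cadherin shedding and turnover, TREAT called 0 in each comparison, with 0 at an unadjusted p under 0.05, and the moderated test passed 1, 1, 2 and 3, in set 1 and set 2 no larger a share than the 37.8% and 52.4% of all genes.

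By Pearson correlation of log2 CPM over the 27 libraries among 15817 genes, the genes whose pattern was most like that of CDH3 included MAP7 (r = 0.943), CACNB4, ETV7 and KCNK1. Those most like CDH1 were AANAT (r = 0.899), HPCAL4, CRB3, HSH2D and WNT9A, and those most like CDH2 were PICSAR (r = 0.986), NADK2, TWIST2, IL20RB and CERS6. These libraries share lines and runs, and the correlations are descriptions.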

How the data were processed

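Total RNA was sequenced as 50 bp single-end reads, and the authors estimated transcript abundance with Salmon (version not given in the sources used here, genome build GRCh38 per the submitters' processing notes) and deposited 1 gene table of estimated counts scaled by transcript length and library size. Strandedness was not stated. Antisense or overlapping genes at the members averaged at most 4.12 counts, except 2 overlapping annotations that the table does not list. The table has 57165 genes, of which 56347 matched GENCODE v44 on GRCh38 for symbols, coordinates and canonical transcript lengths.

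From these deposited estimated counts, limma 3.58.1 (voom) in R 4.3.3 was fitted after edgeR 4.0.16 TMM scaling and filterByExpr with a minimum count of 10, on the 12 libraries of a line (run 1 for SUM159), the 6 wild type libraries compared, or 24 libraries for the difference between lines. The study's methods name voom-limma with TREAT. The TREAT threshold, a log2 fold change of 1, and the added moderated test against 0 from the same fit were chosen here, and p-values were adjusted over all genes tested. edgeR and DESeq2 1.42.0 were run on rounded counts as alternatives. CPM used TMM totals over 27 libraries. Estimated counts are not independent molecules, so a floor of 3 counts covers counting error only. The fitting was tested on simulated data.

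The members and lists were chosen with earlier results of these data known. Genes outside the members were named where TREAT called them in a comparison with No gRNA, where they were among the 5 most like CDH1, CDH2 or CDH3, or where the text says otherwise, and 1 gene that this rule names is not reported here. Replicates of a group correlated between 0.981 and 0.987 in log2 CPM and no 2 libraries were identical.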

Additional observations from a re-analysis of the deposited data

Results flagged for a closer look

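The response of CDH13 to ZEB1 targeting differed between the lines by -2.39 on the log2 scale, and that of CTNNB1 by -0.276 (limma moderated adjusted p-values of 0.00129 and 1.70e-04, each from a test of the difference itself). That test passed 25.4% of all genes, and CDH13 had at most 77.1 counts in any MDA-MB-231 library. Both differences were measured from No gRNA. Against wild type, CTNNB1 was -0.24 and -0.23 with All gRNA and gRNA 4 and 0.0728 and -0.0367 in set 1 and set 2. CDH13 was 0.79 and 0.59 in the same SUM159 groups and 0.49 and -1.57 in set 1 and set 2. A difference between the lines measured from wild type was not tested. The libraries of the 2 lines in that test carried different run labels, so line and run cannot be told apart here.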

How the results depend on the processing

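CDH3 was called against No gRNA in both lines under every alternative listed here, with a log2 fold change of 3.76 to 5.01 over the fits that left out 1 library. Of all alternative values of single members against No gRNA, CDH3 included, 563 kept their direction and side of the threshold, 21 passed only under an alternative, 5 lost their call (all CDH1 in set 1, including 5.36 with limma TREAT adjusted p = 0.0537 when only the groups compared were fitted) and 16 changed sign. The cause was not tested.

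The number of members called was as follows. With the limma moderated test and an absolute log2 fold change over 1, it was 2 for All gRNA, 4 for set 2, 3 and 2 for No gRNA against wild type in SUM159 and MDA-MB-231, 2 for set 2 against set 1, 2 for run 2 against run 1 and 1 for the difference between lines. With edgeR's quasi-likelihood test against 0 it was 4, 5, 4 and 7 for All gRNA, gRNA 4, set 1 and set 2, 6 and 6 for No gRNA against wild type, 1 for All gRNA against gRNA 4, 4 for set 2 against set 1, 5 for run 2 against run 1, 8 between wild type lines and 3 for the difference between lines. With edgeR's glmTreat, and likewise with DESeq2, it was 2 and 1 for No gRNA against wild type and 1 for run 2 against run 1. Upper quartile scaling and library totals each gave 1 for run 2 against run 1. Fitting only the groups compared gave 1 for set 1. Leaving out 1 library gave 1 to 2 for set 1, 0 to 1 for set 2 against set 1 (1, CDH1, without set 1 replicate 3) and 0 to 2 for run 2 against run 1 (2 without run 2 replicate 3).

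With wild type as the control, All gRNA and gRNA 4 had 2 called members each (CDH3 and CDH6). The signs that changed were those of CDH13 (0.79 and 0.59), CTNNB1 (-0.24 and -0.23) and CTNNA1 (-0.22 and -0.12) in All gRNA and gRNA 4, CDH13 (0.49), CTNNB1 (0.0728) and CTNND1 (0.38) in set 1, and CDH11 (0.28) and CTNND1 (0.33) in set 2. CTNNA1 with All gRNA was -0.0142 under library totals and -0.0157 to 0.0754 when leaving out 1 library, CTNNA1 in set 2 was -0.0158 under upper quartile scaling, and CTNND1 in set 1 was -0.206 to 0.00589 when leaving out 1 library.

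The shared replicate numbers did not pair the samples, since correlations of same-numbered deviations lay between -0.083 and 0.053, although every sample correlated best with its own number for gRNA 4 against No gRNA and for set 2 against set 1. The replicate block gave 1 called member (CDH1, 0 without it) for set 2 against set 1 and changed no other count. CDH1 and CDH4 in SUM159 and CDH6 in MDA-MB-231 were under the filter on low counts, and without the filter none was called (limma TREAT adjusted p = 1).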
